A study of Mus musculus with 12 samples.

Results

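Transcript levels of 7 mouse genes tied to cAMP signalling, Crem, Creb1, Pde4a, Pde4b, Pde4d, Per1 and Slc25a25, were followed across cancer cells sorted from mouse lung tumours. The genes were chosen by symbol, with earlier results of these data known. All 7 were found among the 30743 rows of the deposited count table and passed the filter on low counts. When a hormone receptor raises cAMP, protein kinase A phosphorylates the transcription factor CREB, and the CRTC coactivators join it at cAMP response elements in promoters. The salt-inducible kinases (SIKs), which the tumour suppressor kinase Lkb1 activates, phosphorylate CRTCs and hold them out of the nucleus. Part of what CREB induces acts back on the signal: phosphodiesterases of the Pde4 family break cAMP down, and short Crem products repress CREB targets.

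The study sequenced RNA from tumours of mice of mixed BL6/129 background to compare loss of Lkb1 and targeting of Sik genes with tumours that carry neither. Lkb1-deleted tumours are those labelled KT;Lkb1f/f (3 libraries), which carry floxed alleles of Lkb1 (gene symbol Stk11). Sik-targeted tumours are labelled KT;H11LSL-Cas9, a Cre-dependent Cas9 allele, and are titled sgSik1 (3 libraries) or sgSik1-3 (2 libraries) after their guide RNAs. KT tumours (4 libraries) are the controls, and KT, which the labels do not spell out, is the background that all groups carry. Which Sik genes sgSik1-3 stands for is left unexplained in the labels, which also give no ages and do not tell whether the libraries of a group are separate animals, so p values measure a spread between libraries that may be technical. The alternative names of KT libraries 2 to 4 name lentiviral Cre and that of KT library 1 does not. Cells bearing CD45, CD31, F4/80 or Ter119 were sorted out before RNA was taken.

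Totals ran between 3847760 and 13955181 counts per library. KT libraries 2 and 3 stood apart, where 23582 and 23747 genes had at least 1 count. Each of the remaining libraries had 14283 to 16533. Changes of the 7 genes that were called in Lkb1-deleted or Sik-targeted cells are given with and without KT libraries 2 and 3. So are counts of called pathway genes. Stk11 stood at 9.23 to 16.6 CPM in Lkb1-deleted libraries against 31.0 to 44.7 CPM in KT. Sik1, the gene that the guide titles name, stood higher in Sik-targeted libraries (105 to 514 CPM) than in KT (38.2 to 59.6 CPM), and counts per gene do not show small edits at a guide's cut. Sik2 stood at 12.7 to 28.1 CPM in Sik-targeted libraries against 4.72 to 10.4 CPM in KT, and Sik3 at 8.74 to 21.0 CPM against 26.9 to 46.7 CPM. CPM, the unit of levels throughout, are counts corrected for library size as edgeR scaled it. Epithelial markers such as Epcam and Krt8 summed to 1470 to 2508 CPM in Lkb1-deleted, 1771 to 4987 CPM in Sik-targeted and 920 to 1270 CPM in KT libraries, with none of the 6 at 0 in any library. Alveolar type 2 markers such as Sftpc summed to 14920 to 38310, 10030 to 33050 and 22140 to 81680 CPM in the same order.

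Promoter sequences of these genes are shown first, because 1 of them holds the complete cAMP response element. Windows of 250 bases before to 50 after a transcript start were used for 6 of the 7 genes (RefSeq, GRCm38.p6), with several starts for some, and the promoter of Crem was not analysed here. The complete element TGACGTCA lay in 1 window of Slc25a25, and in none of the windows of the other 5 genes. The shorter motif TGACG, read on both strands and held by every complete element, lay in that window, in 1 window each of Pde4a and Pde4b and in both windows of Per1. It lay in none of the windows used for Creb1 or Pde4d. For Pde4d this was 1 window, chr13:108653927-108654226, in a gene that spans chr13:108449948-109953461, and starts elsewhere were not searched. Of all 32851 windows in the table, 1.79% hold the complete element and 20.8% the shorter motif. The window of Slc25a25 with the complete element (chr2:32424017-32424316, minus strand), the 1 window of Pde4b with the shorter motif (chr4:102421305-102421604, plus strand) and a window of Per1 (chr11:69099902-69100201, plus strand) are printed below, 5′ to 3′, with the motif in capitals. In Slc25a25 it starts 150 bases before the transcript start, in Per1 132 bases before, and in Pde4b 34 bases before, where it stands as its reverse complement.
Slc25a25: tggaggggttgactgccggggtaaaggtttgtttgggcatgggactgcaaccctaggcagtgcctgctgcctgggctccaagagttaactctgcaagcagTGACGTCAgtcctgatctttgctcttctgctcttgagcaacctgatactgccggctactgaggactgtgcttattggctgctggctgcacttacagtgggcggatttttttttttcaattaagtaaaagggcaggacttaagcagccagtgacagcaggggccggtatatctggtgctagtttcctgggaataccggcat
Pde4b: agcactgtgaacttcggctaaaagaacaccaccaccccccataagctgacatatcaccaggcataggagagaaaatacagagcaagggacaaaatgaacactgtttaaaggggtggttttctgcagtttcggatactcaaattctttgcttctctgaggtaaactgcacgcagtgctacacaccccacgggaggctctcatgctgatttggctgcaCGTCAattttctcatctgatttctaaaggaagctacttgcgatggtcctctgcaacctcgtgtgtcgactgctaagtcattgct
Per1: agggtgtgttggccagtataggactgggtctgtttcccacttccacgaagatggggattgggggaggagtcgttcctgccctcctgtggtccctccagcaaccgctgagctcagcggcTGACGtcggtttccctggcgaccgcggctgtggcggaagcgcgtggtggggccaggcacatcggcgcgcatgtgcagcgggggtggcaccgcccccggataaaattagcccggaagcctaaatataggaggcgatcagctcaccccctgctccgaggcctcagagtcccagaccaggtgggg
A match of letters is a description of the window, and counts per gene do not tell which start was used.

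Against KT, 2 of the 7 genes rose in Lkb1-deleted cells and 3 in Sik-targeted cells, and none fell. Slc25a25 and Pde4b rose in both, and Pde4d rose in Sik-targeted cells. A gene was called at an adjusted p below 0.05 in edgeR's quasi-likelihood test with Benjamini-Hochberg adjustment over all genes tested. Of all 13575 genes tested, 0.611% were called higher and 0.552% lower in Lkb1-deleted libraries, and 5.81% higher and 6.56% lower in Sik-targeted libraries. In both comparisons 3 of the 7 genes, Slc25a25, Pde4b and Pde4d, lay higher in every altered library than in every KT library, which 6.38% of all genes did in Lkb1-deleted and 7.32% in Sik-targeted libraries. The median log2 change of the 7 genes was 0.51 in Lkb1-deleted and 0.91 in Sik-targeted cells, beside -0.04 and -0.03 over all genes tested. The 7 genes were chosen with earlier results of these data known, so these counts and medians describe the libraries and are no independent support. The 2 comparisons share the KT libraries, so their likeness is no independent result. In these sorted bulk samples, fewer cells of a type and less RNA per cell cannot be told apart.

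**Figure D1:**
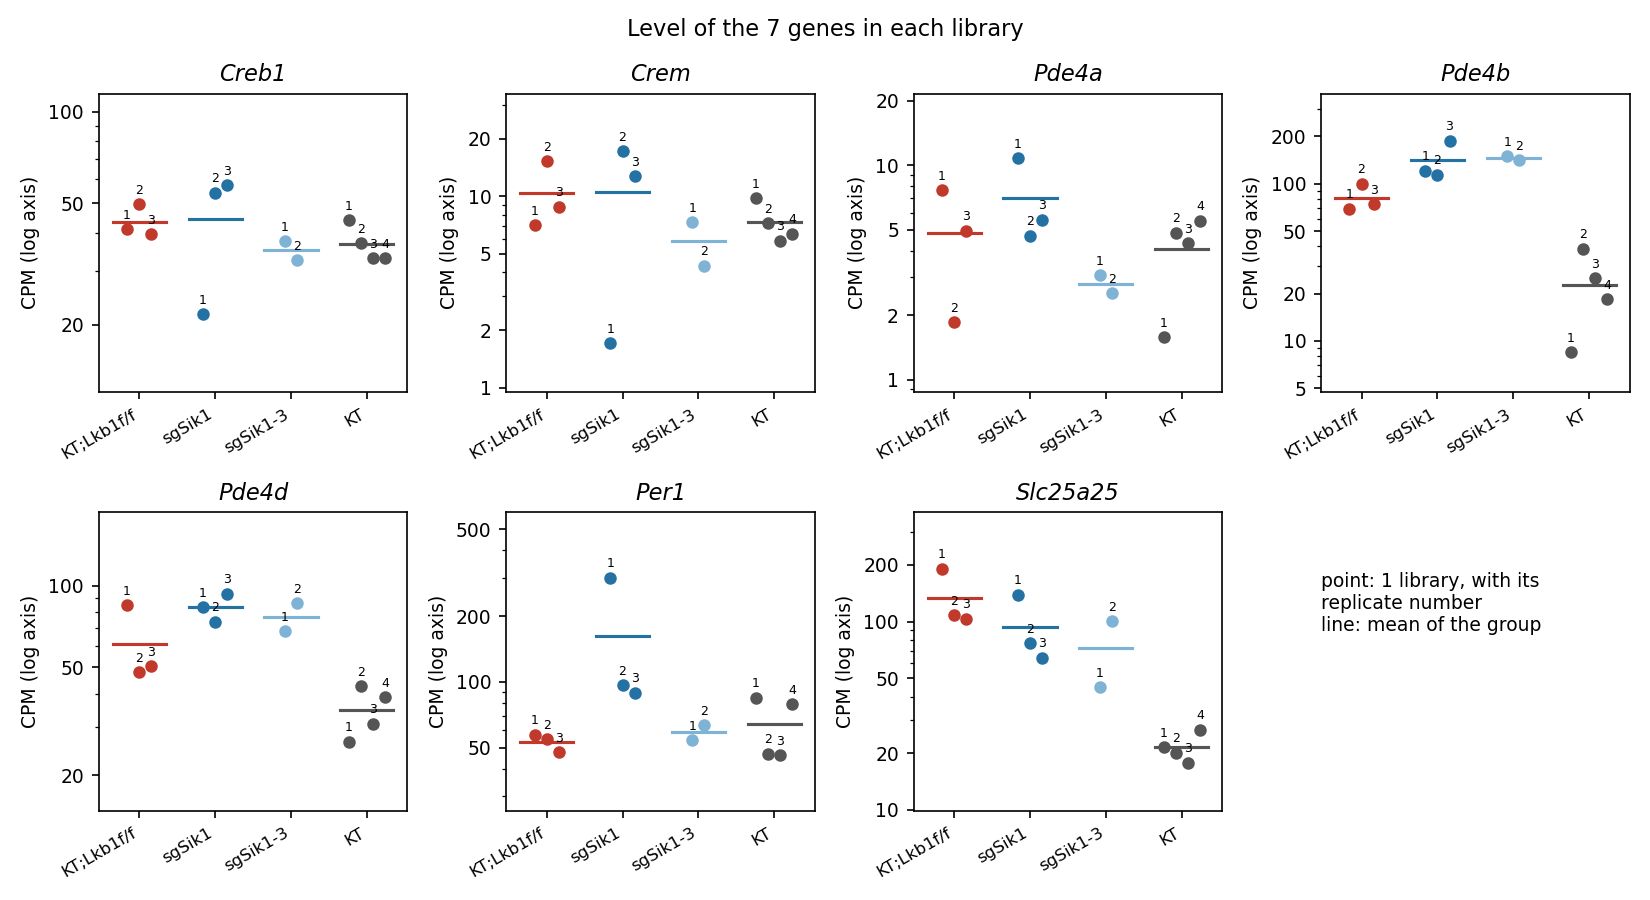
Level of each of the 7 genes in CPM (log axis), with 1 point per library, its replicate number, and a line at the group mean, for KT;Lkb1f/f, sgSik1, sgSik1-3 and KT. Slc25a25, Pde4b and Pde4d lie higher in every library of the 3 altered groups than in every KT library, while Creb1, Crem and Pde4a overlap with KT in each altered group.

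Slc25a25 encodes an ATP-Mg/phosphate carrier of the inner mitochondrial membrane that calcium activates. The gene lies on the minus strand at chr2:32414487-32451445 (GRCm38, GENCODE vM21). It stood at 191, 108 and 104 CPM in Lkb1-deleted libraries 1 to 3, at 139, 77.0 and 64.5 CPM in sgSik1 libraries 1 to 3, at 44.9 and 100.3 CPM in sgSik1-3 libraries 1 and 2, and at 21.6, 20.2, 17.8 and 26.7 CPM in KT libraries 1 to 4. Each library of the 3 altered groups lay above each KT library. The sgSik1 libraries overlapped with those of the other altered groups, while each Lkb1-deleted library lay above each sgSik1-3 library. By mean, the order was Lkb1-deleted (134 ± 49.3 CPM, SD, n = 3), sgSik1 (93.5 ± 39.9, n = 3), sgSik1-3 (72.6 ± 39.2, n = 2) and KT (21.6 ± 3.77, n = 4), and only KT did not overlap with its neighbour. Slc25a25 rose by 2.64 on the log2 scale with Lkb1 deletion (SE 0.39, adjusted p = 0.00739), a fold of 6.23 with a 95% interval of 3.52 to 11.03 and the place 9 among 13575 genes ordered by p. In Sik-targeted cells it rose by 1.98 (SE 0.35, adjusted p = 0.00433), or 3.95-fold (2.34 to 6.65). Without KT libraries 2 and 3 the changes were 2.50 (adjusted p = 0.269) and 1.79 (adjusted p = 0.105), so the size held and the calls did not.

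Part of the exon sequence of Slc25a25, 379 of 4120 bases in GENCODE vM21, also belongs to Naif1, which is read from the opposite strand, and the strand setting of the counting is not given in the sources used here. Naif1 stood at 3.67 to 5.35 CPM in Lkb1-deleted, 2.42 to 6.54 CPM in Sik-targeted and 1.56 to 3.40 CPM in KT libraries and was not called in either comparison (adjusted p = 0.453 and 0.354). In every library Naif1 lay far below Slc25a25. Of the related carriers, Slc25a24 rose in Sik-targeted cells by 1.43 (SE 0.44, adjusted p = 0.0441) and Slc25a23 did not pass in either comparison. Neither of these 2 carriers was called higher without KT libraries 2 and 3, and 0 to 1 was with single libraries left out. The change of Slc25a24 with Lkb1 deletion was 1.06 (SE 0.48, adjusted p = 0.347). Per kilobase of exon, Slc25a25 averaged 32.6 CPM in Lkb1-deleted and 5.24 CPM in KT libraries, and Slc25a23 25.0 and 19.0 CPM.

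The phosphodiesterases Pde4a, Pde4b and Pde4d hydrolyse cAMP, and in rodents Pde4b and Pde4d have promoters that cAMP induces. Pde4b lies at chr4:102087543-102607259 and Pde4d at chr13:108449948-109953461, both on the plus strand. Pde4b stood at 69.5, 100.3 and 74.0 CPM in Lkb1-deleted libraries 1 to 3, at 121, 114 and 188 CPM in sgSik1, at 149 and 142 CPM in sgSik1-3 libraries, and at 8.50, 38.7, 25.0 and 18.5 CPM in KT libraries 1 to 4. The lowest level in an altered library lay well above the highest in KT, and Lkb1-deleted libraries lay below all Sik-targeted libraries. Mean levels ran in the order sgSik1-3 (145.5 ± 5.37 CPM, n = 2), sgSik1 (141 ± 40.4, n = 3), Lkb1-deleted (81.3 ± 16.6, n = 3) and KT (22.7 ± 12.7, n = 4), with overlap between the sgSik1-3 and sgSik1 libraries and none at the other steps. In Sik-targeted cells Pde4b rose by 2.65 (SE 0.39, adjusted p = 0.00176), or 6.27-fold (3.54 to 11.1). With Lkb1 deletion it rose by 1.84 (SE 0.41, adjusted p = 0.0424), or 3.57-fold (1.96 to 6.49).

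In Sik-targeted cells Pde4b passed with each library left out in turn and without KT libraries 2 and 3 together (3.39, adjusted p = 0.0106). With Lkb1 deletion the change stayed between 1.55 and 2.21 with a library left out, but passed in 2 of 12 such fits, at adjusted p between 0.0334 and 0.152. It also failed without KT libraries 2 and 3 (2.61, adjusted p = 0.144) and with only the Lkb1-deleted and KT libraries fitted (1.82, adjusted p = 0.0811). A block for replicate number gave an adjusted p of 0.104. It passed with RLE size factors (adjusted p = 0.0447), with DESeq2 (0.00233) and with no filter on low counts (0.00108). Compared directly, Pde4b in Lkb1-deleted cells differed from Sik-targeted cells by -0.81 (interval -1.66 to 0.03, adjusted p = 0.415).

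Pde4d stood at 84.7, 47.9 and 50.5 CPM in Lkb1-deleted libraries 1 to 3, at 83.3, 73.7 and 93.6 CPM in sgSik1, at 67.8 and 86.2 CPM in sgSik1-3 libraries, and at 26.6, 42.5, 31.0 and 38.8 CPM in KT libraries 1 to 4. All altered libraries lay above all KT libraries, by a narrow margin for Lkb1-deleted libraries 2 and 3. The group means were 83.5 ± 9.94 CPM in sgSik1, 77.0 ± 12.97 in sgSik1-3, 61.0 ± 20.5 in Lkb1-deleted and 34.7 ± 7.25 in KT libraries, and the 3 altered groups overlapped. Pde4d rose 2.33-fold in Sik-targeted cells (log2 change 1.22, SE 0.28, adjusted p = 0.0128). With Lkb1 deletion the change was 0.81 (SE 0.30, interval 0.17 to 1.46, adjusted p = 0.24). The call in Sik-targeted cells was lost without KT library 3 (adjusted p = 0.0514) and without KT libraries 2 and 3 (1.29, adjusted p = 0.139).

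Pde4a was scarce and set no altered group apart from KT. It stood at 7.65, 1.85 and 4.96 CPM in Lkb1-deleted libraries 1 to 3, at 10.8, 4.70 and 5.57 CPM in sgSik1, at 3.07 and 2.53 CPM in sgSik1-3 libraries, and at 1.57, 4.84, 4.34 and 5.52 CPM in KT libraries 1 to 4. High and low libraries occurred in the Lkb1-deleted and KT groups, and the sgSik1-3 libraries lay below the sgSik1 libraries. Its changes were 0.24 with Lkb1 deletion (interval -1.03 to 1.51, adjusted p = 0.916) and 0.38 in Sik-targeted cells (-0.76 to 1.51, adjusted p = 0.689), intervals that hold a 2-fold rise as well as no change. Means were 7.02 ± 3.30 CPM in sgSik1, 4.82 ± 2.90 in Lkb1-deleted, 2.80 ± 0.38 in sgSik1-3 and 4.07 ± 1.73 in KT libraries, with KT ranked between Lkb1-deleted and sgSik1-3 and overlap between the libraries of neighbouring groups.

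Counted together and per kilobase of exon, the 4 Pde4 genes summed to 21.7 to 23.5 CPM in Lkb1-deleted, 26.7 to 39.0 CPM in Sik-targeted and 7.20 to 17.2 CPM in KT libraries. The groups did not overlap in this sum. Pde4b made up 36.3% to 56.6% of it in Lkb1-deleted, 48.5% to 62.1% in Sik-targeted and 14.5% to 29.6% in KT libraries. The level of Pde4b per kilobase was 0.668 to 1.70 times that of Pde4d in Lkb1-deleted, 1.18 to 1.79 times in Sik-targeted and 0.260 to 0.742 times in KT libraries. Pde4d was thus the more abundant subtype in all KT libraries and in Lkb1-deleted library 1, and Pde4b in the other altered libraries. Of the counts themselves, Pde4b took 54 of 275 in KT library 1 (19.6%, Wilson 95% interval 15.4% to 24.7%), the smallest sum, and 3436 of 5312 in sgSik1 library 3 (64.7%, 63.4% to 66.0%), the largest. Counts come from amplified cDNA without molecule tags, so such intervals cover counting error only. The remaining subtype, Pde4c, did not pass in either comparison, with changes of -0.17 (adjusted p = 0.94) in Lkb1-deleted and -1.45 (adjusted p = 0.0881) in Sik-targeted cells.

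**Figure D2:**
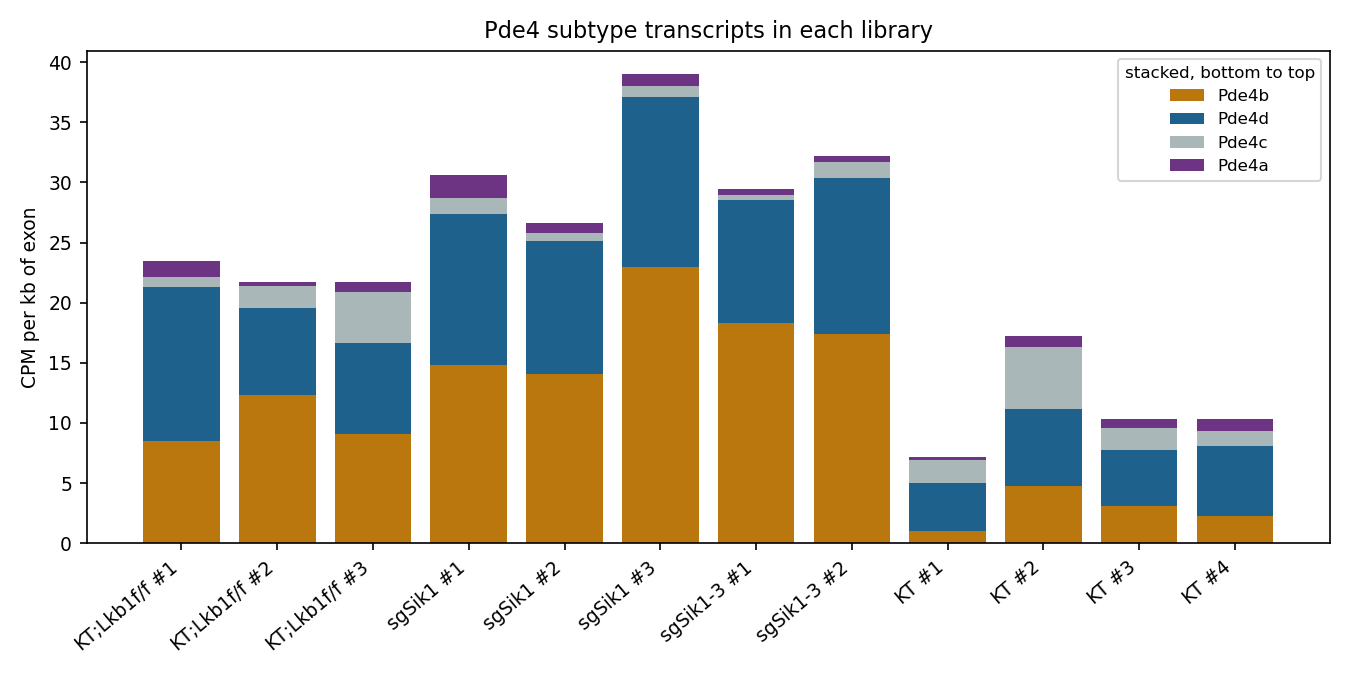
CPM per kilobase of exon of Pde4b, Pde4d, Pde4c and Pde4a, stacked from the bottom in each of the 12 libraries, with KT;Lkb1f/f first, then sgSik1, sgSik1-3 and KT. The summed height is 21.7 or more in each altered library and 17.2 or less in each KT library, and the Pde4b segment makes up most of the added height in the group means.

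Per1, a repressor of the circadian clock that cAMP and CREB can induce, stood at 57.4, 54.7 and 47.8 CPM in Lkb1-deleted libraries 1 to 3, at 299.8, 96.4 and 89.2 CPM in sgSik1, at 54.1 and 63.4 CPM in sgSik1-3 libraries, and at 84.7, 46.9, 46.3 and 79.2 CPM in KT libraries 1 to 4. The sgSik1 libraries lay above all others and sgSik1 library 1 far above, while the Lkb1-deleted and sgSik1-3 libraries lay within the KT range. Means were 162 ± 120 CPM in sgSik1, 58.7 ± 6.54 in sgSik1-3, 53.3 ± 4.96 in Lkb1-deleted and 64.3 ± 20.5 in KT libraries. Per1 differed by -0.27 with Lkb1 deletion (interval -1.34 to 0.81, adjusted p = 0.886) and by 0.91 in Sik-targeted cells (-0.05 to 1.86, adjusted p = 0.2), and passed in neither. Without KT libraries 2 and 3 these changes were -0.59 (adjusted p = 0.919) and 0.52 (adjusted p = 0.744). In sgSik1 alone the change was 1.35 (SE 0.42, adjusted p = 0.0814; 0.0342 with DESeq2 and 0.0376 with no filter on low counts), and without library 1 it was 0.53 (adjusted p = 0.362). In that library the 4 genes with the most counts over all 12 libraries took 74.2% of the counts, the largest share of any library. The smallest was 18.4%, in KT library 1. The 1055 counts of Per1 in sgSik1 library 1 came from 8941240 in total, which edgeR scaled to an effective size of 3518452. In sgSik1 library 3, 1634 came from 13955181, scaled to 18320848. How far the share of the 4 genes or this scaling sets the Per1 level of sgSik1 library 1 was not tested.

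Neither transcription factor passed the test in any comparison. Creb1, which encodes CREB, stood at 41.1, 49.6 and 39.7 CPM in Lkb1-deleted libraries 1 to 3, at 21.6, 54.2 and 57.4 CPM in sgSik1, at 37.6 and 32.6 CPM in sgSik1-3 libraries, and at 44.1, 36.9, 33.0 and 33.1 CPM in KT libraries 1 to 4. Its lowest and highest libraries were both sgSik1 libraries, and each altered group overlapped with KT. Each Lkb1-deleted library lay above each sgSik1-3 library. The changes were 0.24 with Lkb1 deletion (interval -0.49 to 0.97, adjusted p = 0.834) and 0.15 in Sik-targeted cells (-0.49 to 0.79, adjusted p = 0.796), so a change of more than 2-fold in either direction lay outside both intervals. CREB is switched by phosphorylation and by its coactivators, which transcript counts do not measure. Means were 44.4 ± 19.8 CPM in sgSik1, 43.4 ± 5.37 in Lkb1-deleted, 35.1 ± 3.53 in sgSik1-3 and 36.8 ± 5.19 in KT libraries, so that KT ranked between Lkb1-deleted and sgSik1-3, and the libraries of neighbouring groups overlapped.

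Crem encodes activators and, from an inner promoter, the short repressor ICER, which CREB induces, and counts per gene do not separate them. It stood at 7.05, 15.2 and 8.82 CPM in Lkb1-deleted libraries 1 to 3, at 1.71, 17.2 and 12.8 CPM in sgSik1, at 7.32 and 4.34 CPM in sgSik1-3 libraries, and at 9.76, 7.22, 5.86 and 6.37 CPM in KT libraries 1 to 4. The value in sgSik1 library 1 rests on 6 counts and is the lowest of all, and sgSik1 library 2 is the highest. Crem differed by 0.51 with Lkb1 deletion (interval -0.70 to 1.72, adjusted p = 0.778) and by 0.27 in Sik-targeted cells (-0.81 to 1.35, adjusted p = 0.775), so that a 2-fold rise lay inside both intervals and a 2-fold fall outside. Mean levels of 10.6 ± 7.99 CPM in sgSik1, 10.4 ± 4.30 in Lkb1-deleted, 5.83 ± 2.11 in sgSik1-3 and 7.30 ± 1.73 in KT libraries came from libraries that overlapped between all groups.

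**Figure D3:**
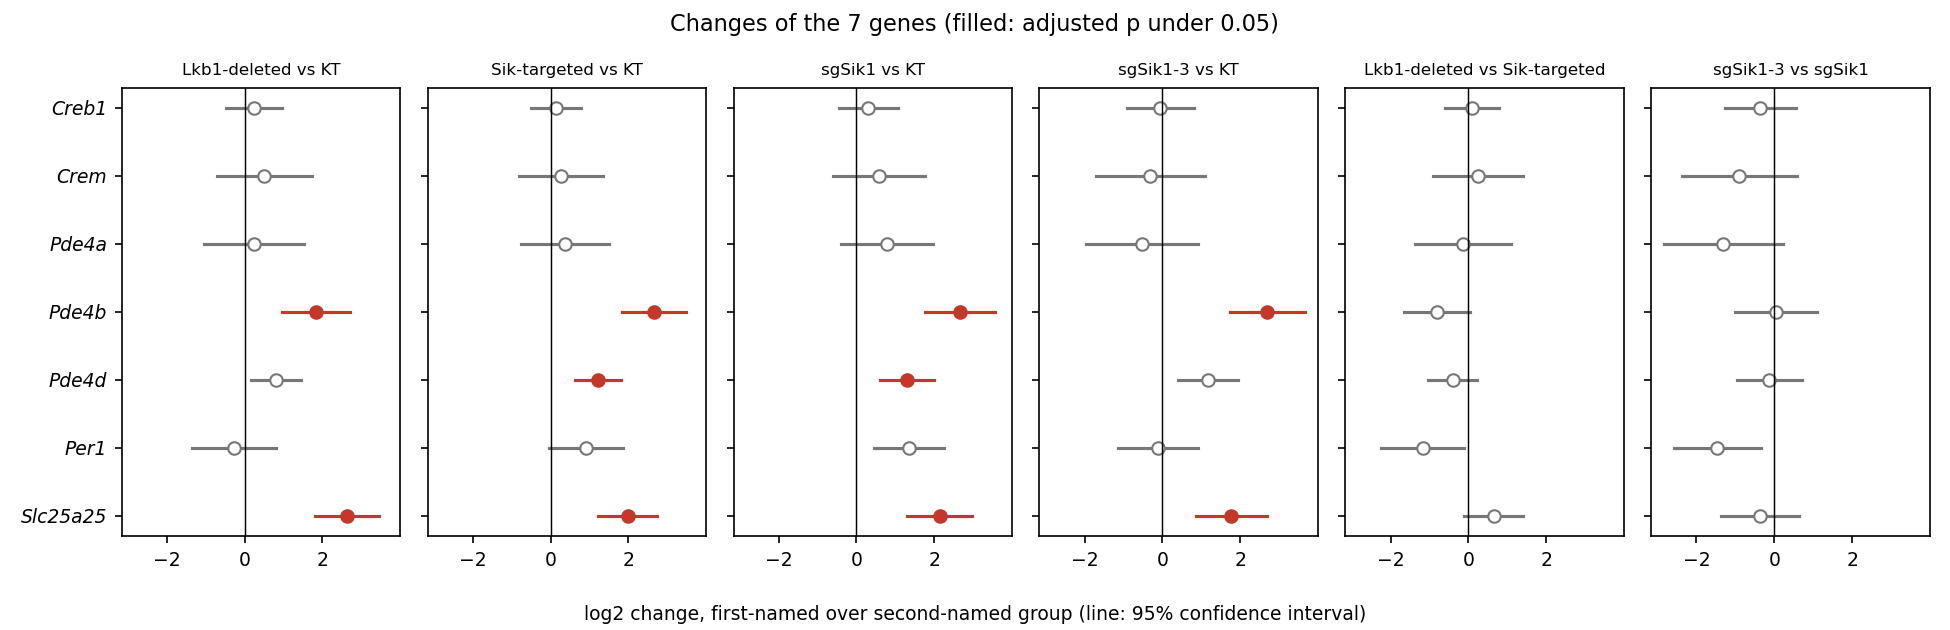
Log2 change of the 7 genes, first-named over second-named group, in 6 comparisons, with 95% intervals as lines and filled points where the adjusted p was below 0.05. Pde4b and Slc25a25 are filled in all 4 comparisons with KT, Pde4d in Sik-targeted and sgSik1 against KT, and none in the comparisons between altered groups.

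The titles divide the Sik-targeted libraries into sgSik1 and sgSik1-3, and a fit of the 4 title groups over 15303 genes asked whether the 7 genes moved in each. In sgSik1 against KT, 3 of 7 were called higher, where 2.71% of all genes were: Pde4b by 2.66 (SE 0.43, adjusted p = 0.00463), Slc25a25 by 2.14 (SE 0.39, adjusted p = 0.00975) and Pde4d by 1.29 (SE 0.33, adjusted p = 0.0375). In sgSik1-3 against KT, 2 of 7 were, where 1.74% of all genes were: Pde4b by 2.70 (SE 0.46, adjusted p = 0.00716) and Slc25a25 by 1.77 (SE 0.43, adjusted p = 0.0367). The change of Pde4d in sgSik1-3 was 1.17 (SE 0.36, adjusted p = 0.0893). It passed with DESeq2 (adjusted p = 0.0178) and with only the 2 groups compared (0.0213). With RLE size factors (0.0934), no filter on low counts (0.141) and a block for replicate number (0.221) it did not. Groups did not overlap for 4 of 7 genes in sgSik1, the 3 called and Per1, and for Pde4b, Slc25a25 and Pde4d in sgSik1-3, all higher than KT, where 8.24% and 14.9% of all genes did so. With single libraries left out, Slc25a25 in sgSik1-3 passed in 6 of 12 fits, and without sgSik1-3 library 2 its change was 1.08 (adjusted p = 0.474). Pde4d in sgSik1 passed in 4 of 12. Without KT libraries 2 and 3, Pde4b changed by 3.43 in sgSik1-3 (adjusted p = 0.0469), while its change in sgSik1 was 3.36 (adjusted p = 0.0693) and no other of the 7 genes passed.

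Set directly against each other, sgSik1-3 and sgSik1 differed in none of the 7 genes by edgeR or DESeq2, and 1 of them, Per1, had an unadjusted p below 0.05. Of all 15303 genes edgeR called 0 (0%), 528 (3.45%) had an unadjusted p below 0.05, and DESeq2 called 1 higher and 5 lower. Pde4b differed by 0.04 (interval -1.02 to 1.09) and Slc25a25 by -0.37 (-1.36 to 0.63). Per1 and Pde4a did not overlap between these groups, both lower in sgSik1-3, with differences of -1.46 (interval -2.59 to -0.33) and -1.31 (-2.84 to 0.22), where 8.55% of all genes lay lower without overlap. With 2 libraries against 3, these intervals are wide.

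Lkb1-deleted against Sik-targeted cells gave a call for none of the 7 genes by edgeR or DESeq2, while 0.221% of all genes were called by edgeR. At an unadjusted p below 0.05 stood 1 of the 7 and 12.7% of all genes. The largest differences among the 7 were in Per1, at -1.18 (interval -2.24 to -0.11, unadjusted p = 0.0328 and adjusted p = 0.352), Pde4b, at -0.81, and Slc25a25, at 0.66 (-0.10 to 1.42, adjusted p = 0.464). Only Pde4b separated the libraries without overlap, which 2.93% of all genes did in that direction. Without sgSik1 library 1 the difference in Per1 was -0.50 (adjusted p = 0.498).

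Other genes of the pathway were taken from lists drawn up with earlier results of these data known, so their counts describe the libraries and are no independent support. Of 28 other targets of CREB and CRTC, 24 were tested, of which 7 rose and none fell with Lkb1 deletion, and 11 rose and 1 fell in Sik-targeted cells. Their median change was 1.62 in both. Of all genes tested, 0.611% were called higher and 0.552% lower with Lkb1 deletion, and 5.81% and 6.56% in Sik-targeted cells. Nr4a2, an orphan nuclear receptor, rose by 3.58 (SE 0.42, adjusted p = 0.00128) in Lkb1-deleted and 3.01 (SE 0.39, adjusted p = 0.000805) in Sik-targeted cells. Areg, the EGF receptor ligand amphiregulin, rose by 2.02 (SE 0.36, adjusted p = 0.0197) and 2.21 (SE 0.34, adjusted p = 0.00207) in the same order. Fosb, an AP-1 subunit, rose by 2.81 (adjusted p = 0.0232) and 1.98 (adjusted p = 0.0162), and Nr4a1, a relative of Nr4a2, by 2.76 (adjusted p = 0.0408) and 2.86 (adjusted p = 0.0068). Fam46a, named after its values were seen, was the gene that fell, by 1.92 in Sik-targeted cells (adjusted p = 0.0166). With single libraries left out, 1 to 11 genes of this list rose with Lkb1 deletion and 7 to 12 in Sik-targeted cells, and without KT libraries 2 and 3 the numbers were 0 and 2.

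Of these 28 genes, 6 are also on a list of 18 genes that respond to tissue dissociation, among them Fos, Fosb and Junb, and the tumours were digested with enzymes at 37 °C. That list summed to 14530 to 22760 CPM in Lkb1-deleted, 10450 to 29460 CPM in Sik-targeted and 2527 to 6225 CPM in KT libraries, without overlap with KT. Of its 18 genes, 7 and 9 rose in the 2 comparisons, where 0.611% and 5.81% of all genes did, and none fell. Its part in the levels of Slc25a25, Pde4b, Pde4d and the other targets was not tested.

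Pde4b is also a main phosphodiesterase of leukocytes, and markers of these and other cell types are given here. Macrophage markers summed to 16.1 to 28.5 CPM in Lkb1-deleted, 21.2 to 54.6 CPM in Sik-targeted and 83.6 to 226 CPM in KT libraries. In the same order, 5 markers of all leukocytes summed to 0.972 to 2.68, 0.142 to 1.31 and 16.1 to 47.4 CPM, with Tyrobp at 0 in every altered library. None of the macrophage or leukocyte markers was at 0 in a KT library. Of the 9 and 4 tested, 4 and 3 fell in Lkb1-deleted cells, where 0.552% of all genes were called lower. In Sik-targeted cells 6 and 4 fell, where 6.56% of all genes were called lower. Endothelial markers summed to 0.729 to 147 CPM in Lkb1-deleted, 12.7 to 26.8 CPM in Sik-targeted and 10.1 to 24.6 CPM in KT libraries, and fibroblast markers to 1.58 to 378, 12.9 to 38.7 and 27.5 to 375 CPM. Markers of ciliated cells (2.31 to 5.33, 0.362 to 3.13 and 18.3 to 41.2 CPM) and of club cells (25.0 to 44.6, 13.9 to 88.3 and 367 to 3032 CPM) lay lower in the altered groups. Those of T and B cells reached at most 3.28 CPM, with Cd3e and Ms4a1 at 0 in every altered library, and Emr1, which encodes F4/80, was at 0 in all Lkb1-deleted libraries. Their part in the results was not tested.

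**Figure D4:**
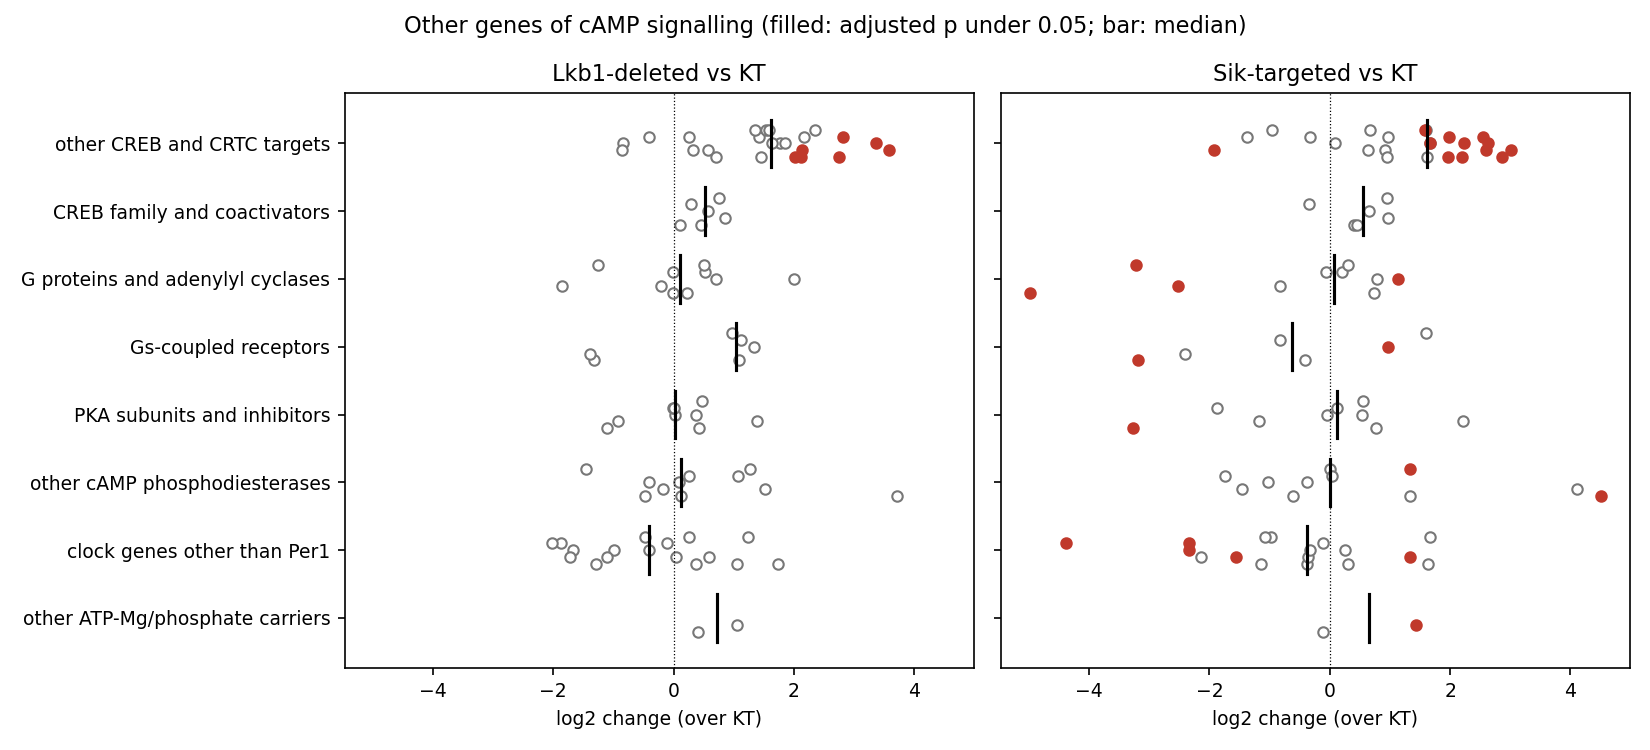
Log2 change over KT of each tested gene in 8 lists of the cAMP pathway, in Lkb1-deleted (left) and Sik-targeted (right) cells, with 1 point per gene, filled where the adjusted p was below 0.05, and a bar at the median. The list of other CREB and CRTC targets has its median at 1.62 in both panels, and the filled points of the other lists lie in the Sik-targeted panel only.

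Upstream of CREB, 4 of 10 tested G proteins and adenylyl cyclases (1 higher, 3 lower), 2 of 6 Gs-coupled receptors (1 higher, 1 lower) and 1 of 9 protein kinase A genes (lower) passed in Sik-targeted cells, where 5.81% of all genes were called higher and 6.56% lower. Without KT libraries 2 and 3, the only call left in these 3 lists was 1 receptor that was lower. With single libraries left out, 0 to 1 G proteins and cyclases were called higher and 2 to 3 lower. In the same fits 0 to 1 receptors were called higher and 1 to 2 lower. Of the protein kinase A genes, 0 to 1 were called higher and 0 to 1 lower in these fits. DESeq2 called 2 protein kinase A genes higher and 1 lower. The higher call among G proteins and that among receptors were each also lost with only the 2 groups compared. The 6 partners of CREB tested, Atf1, Crtc1, Crtc2, Crtc3, Crebbp and Ep300, gave no edgeR call in either comparison (1 and 2 at an unadjusted p below 0.05, and 0 and 1 called by DESeq2), and Crebbp, an acetyltransferase that CREB recruits, came closest with 0.98 in Sik-targeted cells (SE 0.35, adjusted p = 0.0835). None of the tested G proteins, adenylyl cyclases, Gs-coupled receptors, protein kinase A genes or other phosphodiesterases passed with Lkb1 deletion by edgeR, although 2 of the receptors and 3 of the phosphodiesterases had an unadjusted p below 0.05 and DESeq2 called 1 receptor. In Sik-targeted cells, the cyclase Adcy7 fell by 3.21 (adjusted p = 0.0102), the inhibitory subunit Gnai1 fell by 2.52 (adjusted p = 0.0304), and Gnai2 rose by 1.13 (adjusted p = 0.048). Adcy2 was called lower too (adjusted p = 0.0121) at a mean of 1.37 CPM in KT. The A2B adenosine receptor Adora2b fell by 3.19 (adjusted p = 0.00387), and with Lkb1 deletion its change was -1.32 (adjusted p = 0.363). Pkia, an inhibitor of protein kinase A, fell by 3.26 (adjusted p = 0.0313) to a mean of 0.184 CPM in Sik-targeted cells, against 1.69 CPM in KT.

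Among 11 tested cAMP phosphodiesterases beyond the 3 described, Pde10a and Pde8a rose in Sik-targeted cells, where 5.81% of all genes were called higher. The number called higher was 0 without KT libraries 2 and 3 and 0 to 3 with single libraries left out. Pde10a, an enzyme known best from the striatum, averaged 19.3 CPM in Sik-targeted and 0.719 CPM in KT cells (log2 change 4.51, SE 1.18, adjusted p = 0.0262). Pde8a, which has a high affinity for cAMP, averaged 7.57 CPM in Sik-targeted and 2.98 CPM in KT cells (1.34, SE 0.41, adjusted p = 0.0441). With Lkb1 deletion their changes were 3.71 (adjusted p = 0.177) and 1.27 (adjusted p = 0.204). In these tests the 2 genes were called in Sik-targeted cells only, and the direct test of the difference gave no call in any cAMP phosphodiesterase.

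Clock genes beside Per1 gave no edgeR call with Lkb1 deletion (4 at an unadjusted p below 0.05, and 2 called lower by DESeq2), while 1 of 17 rose and 4 fell in Sik-targeted cells. Without KT libraries 2 and 3 both numbers were 0, and with single libraries left out they were 0 to 3 and 2 to 5. With all libraries fitted, 5.81% of all genes were called higher and 6.56% lower in Sik-targeted cells, and 1 of 17 higher is close to that share. Per3, a paralogue of Per1, fell by 2.34 (SE 0.47, adjusted p = 0.00793), and Per2 differed by -0.33 (adjusted p = 0.68). The clock output factor Tef fell by 1.55 (adjusted p = 0.0179), and the clock repressor Ciart, listed under its older symbol Gm129, fell by 2.34 (adjusted p = 0.0179). Bhlhe40, a transcriptional repressor within the clock, rose by 1.33 (adjusted p = 0.0184). The hour at which tumours were taken is not given in the sources used here, and its part in clock gene levels was not tested.

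The genes whose profile over the 12 libraries lay nearest to a member were found by the root mean square difference of log2 CPM profiles, each centred on its mean, among 9807 genes. For Pde4b they included Areg (0.47) and Pfkp (0.47), where the median gene lay at 1.43. For Slc25a25 they were Fam46c (0.42), Bcr (0.45) and Dusp1 (0.45), with a median of 1.26. Those nearest to Pde4d were Eif2c2, Slc25a30 and Zdhhc5 (0.24 to 0.25), and to Per1 Tmem115, Rnf44 and Lmf2 (0.27 to 0.29). Creb1 was closest to Ywhaq, Lmbrd1 and Pja2 (0.16 to 0.17), Crem to Ap3m1, Uba6 and Zfp266 (0.25 to 0.28), and Pde4a to Lin37, Arhgef11 and Adar (0.31 to 0.40). A flat profile lies near many genes, so distances are to be read against each gene's own median, which ran from 0.72 for Creb1 to 1.43 for Pde4b. All 12 points share the library sizes and the split into groups.

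**Figure D5:**
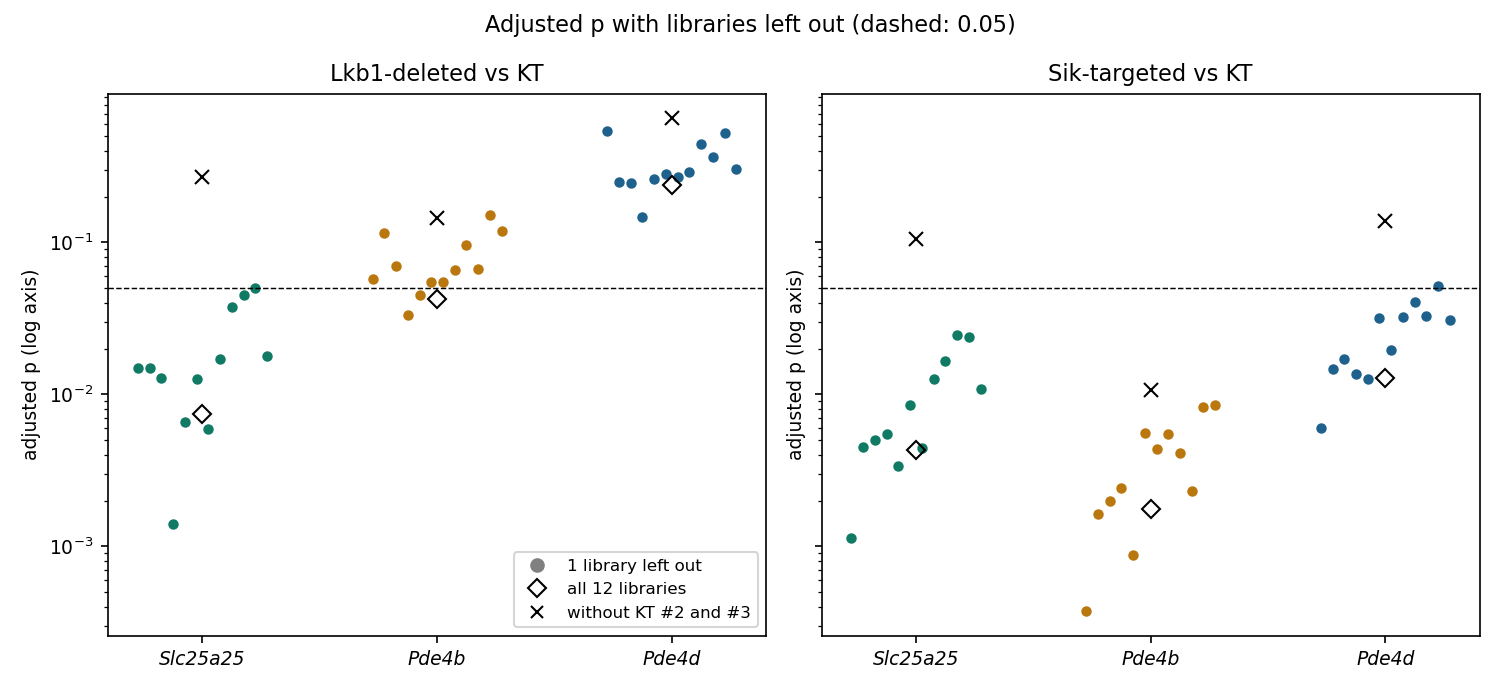
Adjusted p (log axis, dashed line at 0.05) of Slc25a25, Pde4b and Pde4d in Lkb1-deleted (left) and Sik-targeted (right) against KT, with 1 point for each library left out, a diamond for all 12 libraries and a cross without KT libraries 2 and 3. In the Lkb1-deleted panel Slc25a25 stays below the line in all 12 fits and Pde4b in 2, and in the Sik-targeted panel Pde4b stays below it also at the cross.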

How the data were processed

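RNA of sorted lung tumour cells was converted with an amplifying Ovation kit, without molecule tags, and sequenced as paired reads, per the labels' protocols. The deposited counts are whole reads per gene that the authors made with STAR 2.4.2a and HTSeq on mm10, per the submitters' processing notes. The annotation is not given in the sources used here, nor is how strand was treated. All 12 libraries were fitted with edgeR 4.0.16 in R 4.3.3 (TMM scaling, filterByExpr by group, robust quasi-likelihood F test, 2-sided, no covariates), in 3 genotype groups (13575 genes) and in 4 title groups (15303 genes), with Benjamini-Hochberg adjustment over all genes tested and a threshold of 0.05. Intervals are 95%. CPM use TMM effective library sizes, and levels between genes are per kilobase of GENCODE vM21 exon. The common dispersion was 0.262 and 0.287. Precision follows the depth of each library, given with the results, and no libraries of a group were duplicates (lowest chi-square per degree of freedom 15.1).

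Members and lists were chosen with earlier results of these data known. Named are all 7 members, up to 4 called genes per pathway list by smallest p (or the gene of smallest p where none was called), and, for each member, the 3 genes of nearest profile, by log2(CPM + 0.5), among those with a mean of at least 2 CPM; a few genes that this rule names are not reported here. Promoter windows run from 250 bases before to 50 after a RefSeq start and were used for 6 of 7 members. The code was tested on simulated data. Alternatives were RLE size factors, DESeq2 1.42.0, no filter on low counts, only the groups compared, each library left out in turn, KT libraries 2 and 3 left out together, a replicate block, and the short motif in place of the complete element.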

Additional observations from a re-analysis of the deposited data

Results flagged for a closer look

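Per1 in the Sik-targeted libraries was singled out because 1 library lay far from the rest: sgSik1 replicate 1 stood at 300 CPM, while the other 4 lay between 54.1 and 96.4 CPM. Its gap to the next library took 0.828 of the range of the group. These levels rest on edgeR's library scaling, given with the Per1 results for sgSik1 replicate 1. This was 1 of 14 sets of libraries examined in this way, and chance singles out about 1 in 20.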

How the results depend on the processing

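The number of the 7 genes called higher moved as follows. Against 2 in Lkb1-deleted and KT libraries fitted with the others, it was 1 with only the 2 groups compared, 0 without KT libraries 2 and 3, and 1 to 2 with single libraries left out. In Sik-targeted against KT (3 called) it was 1 without KT libraries 2 and 3 and 2 to 3 with single libraries left out. In sgSik1 against KT (3 called) these numbers were 0 and 2 to 4, and in sgSik1-3 against KT (2 called) 1 and 0 to 3. With DESeq2, 2 of the 7 genes were called higher in Lkb1-deleted, 3 in Sik-targeted, 4 in sgSik1 and 3 in sgSik1-3 against KT. Over all genes tested, 415 were called higher in sgSik1 and 267 in sgSik1-3, and 788 and 571 with DESeq2. With single libraries left out, 95 to 775 and 49 to 593 were called higher. The other alternatives, the replicate block among them, gave 1 to 963 and 8 to 947. No member was called lower under any alternative, and none in the comparisons between altered groups. With KT libraries 2 and 3 left out, calls over all genes in Lkb1-deleted against KT were 1 higher and 2 lower in place of 83 and 75, and in Sik-targeted against KT 37 and 61 in place of 789 and 890. DESeq2 called 265 and 288, and 1214 and 1312; without the filter on low counts 442 and 404, and 1235 and 2419 were called. With single libraries left out, 7 to 145 genes were called higher and 6 to 97 lower in Lkb1-deleted against KT, and 270 to 1109 and 307 to 1546 in Sik-targeted against KT. RLE scaling changed no call of a member. Fits with libraries left out also rest on fewer libraries, and no pair other than KT libraries 2 and 3 was left out. The cause of these shifts was not tested.

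With the replicate block, 1 of the 7 genes was called higher in Lkb1-deleted, 3 in Sik-targeted, 2 in sgSik1 and 1 in sgSik1-3 against KT, and 21 and 427 of all genes were called higher and 28 and 623 lower in Lkb1-deleted and Sik-targeted against KT. Between same-numbered libraries, deviations from the group means correlated at r between -0.375 and 0.233, over 0.1 in 6 of 15 pairs. Differently numbered libraries were not compared, and deviations within such small groups depend on each other. These r values therefore cannot tell whether the numbers pair the libraries. In Sik-targeted against KT the block left, higher and lower, 0 and 3 calls of G proteins and cyclases, 0 and 1 of receptors, 0 and 2 of clock genes, 1 and 0 of other phosphodiesterases and 0 and 0 of carriers.

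Of the 756 refitted changes of members, 22 turned direction, all with a single library left out and none of a called change. The ranges over libraries left out were, for Lkb1-deleted against KT, -0.27 to 0.65 in Pde4a. For Sik-targeted against KT they were -0.12 to 0.51 in Crem, -0.0073 to 0.30 in Creb1 and -0.033 to 0.56 in Pde4a. For Lkb1-deleted against Sik-targeted they were -0.17 to 0.63 in Crem, -0.061 to 0.25 in Creb1 and -0.67 to 0.26 in Pde4a. For sgSik1-3 against KT they were -0.73 to 0.0305 in Crem, -0.15 to 0.056 in Creb1 and -0.25 to 0.051 in Per1. For sgSik1-3 against sgSik1 they were -0.091 to 0.30 in Pde4b, -0.31 to 0.032 in Pde4d and -1.06 to 0.096 in Slc25a25. Depth limits Crem and Pde4a most, at 6 counts of Crem in sgSik1 library 1.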
